A study of Mus musculus with 4 samples.

Results

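Epididymal fat of overloaded male mice was compared between GW4869 and its vehicle. The comparison rests on 2 of the 4 arrays of the study, chosen by their labelled surgery and injection, and on all 19505 genes that the array annotation names. One array, called GW-SA below, holds fat of mice given GW4869 after synergist ablation, an operation that overloads a hindlimb muscle by removing the muscles that work beside it. The other, called Veh-SA, holds fat of mice given DMSO, the solvent of the drug, after the same operation. The remaining arrays, Veh-Sham and GW-Sham, hold fat of sham-operated mice given DMSO or GW4869 and are used here to show where a level lies. All groups share male sex and the same fat depot; the sources used here do not give strain, age, dose, the time from surgery to sampling or whether an array holds 1 mouse or a pool.

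GW4869 inhibits neutral sphingomyelinase, the enzyme that releases ceramide from sphingomyelin at membranes, and it is used to reduce the shedding of exosomes. The series title links vesicles from overloaded muscle to the breakdown of fat stores, so the comparison addresses how fat of overloaded mice looks when vesicle release is inhibited by a drug given to the animal. White adipocytes take up fatty acids, make them from glucose and acetate, store them as triglyceride in a lipid droplet coated by perilipins, and release them through a cascade of lipases that cAMP switches on. The depot also holds endothelial cells, fibroblasts, mesothelium and macrophages, and in males it lies against the epididymis, the coiled duct in which sperm mature.

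Values are the deposited log2 levels, and a difference is always GW-SA minus Veh-SA, so 1 unit is a doubling on the deposited scale. With 1 array per group no difference has a replicate check and no test was made: "higher" and "lower" describe these 2 arrays, not the conditions, and counts use genes at least 1.5-fold (0.585 log2 units) apart. List counts use genes whose mean over the 4 arrays is above a floor of log2 4.67. Antigenomic probes, which match no mouse sequence, had a 95th percentile between log2 6.34 and 6.40 on the 4 arrays. Where either reading of a gene lies within that background, its difference is given as "at least", measured from the background, and where both do, levels alone are given. A run of 4 levels after a gene is always in the order GW-SA, Veh-SA, Veh-Sham and GW-Sham.

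Among 11703 genes above the floor, 2156 (18.4%) were higher on GW-SA and 2202 (18.8%) were lower. Every list count over members above the floor is to be read against these shares. The median difference was -0.04, and 7345 genes lay between the thresholds. The higher side reached much further than the lower side. At least 2 log2 units separated 415 genes on the higher side and 36 on the lower side, and at least 4 log2 units separated 133 and 0. Of those 133 genes, 36 belong to lists of the reproductive tract or of epithelial structure, which are described first and kept apart from the rest.

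**Figure D1:**
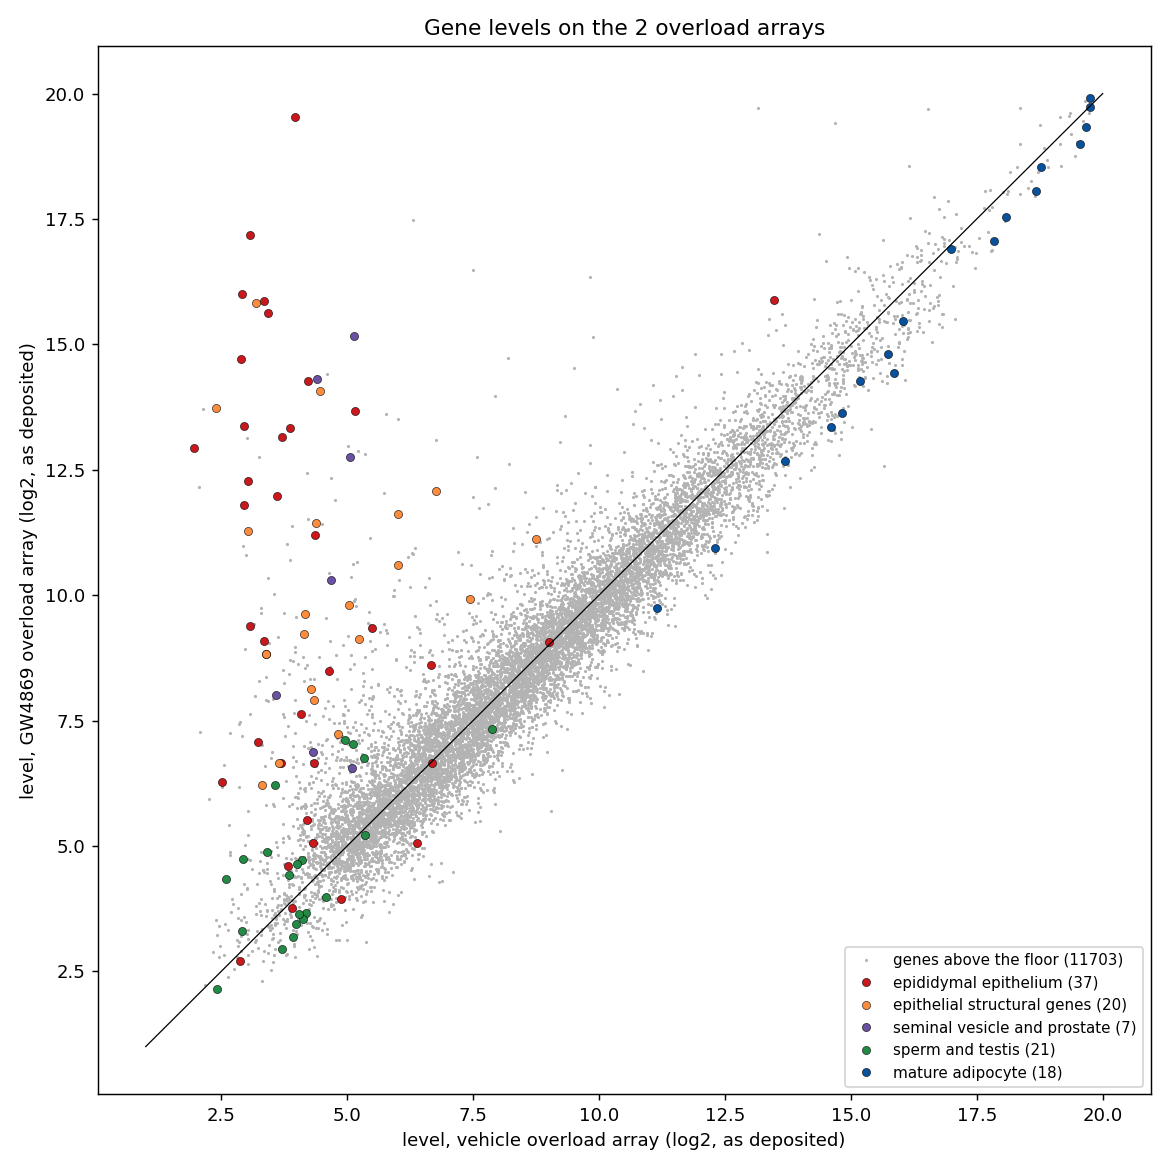
Level of each gene above the floor on the vehicle overload array (horizontal axis, log2) and on the GW4869 overload array (vertical axis, log2), 1 array each; grey points are 11703 genes and the black line marks equal levels. Most coloured points of the epididymal and epithelial lists stand far above the line, sperm and testis genes stay near the low end of both axes, and mature adipocyte genes lie at the high end on or below the line.

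Transcripts of the epididymal epithelium gave the largest differences. Gpx5, a secreted glutathione peroxidase of the proximal epididymis, read 19.53 on GW-SA against 3.97 on Veh-SA, with 4.18 on Veh-Sham and 4.51 on GW-Sham, at least 13.18 log2 units higher. Spag11b, a defensin-like epididymal protein, read 17.17, 3.07, 3.79 and 3.01. The lipocalin Lcn8 had 15.86 on GW-SA against 3.35 on Veh-SA, with 3.53 on Veh-Sham and 4.12 on GW-Sham. For these 3 genes, all known as products of the proximal duct, GW-SA was the only array above background. Adam7, a membrane protein of the epididymis, was high on Veh-Sham too, with 2.92 on Veh-SA and 16.01 on GW-SA, and 14.64 and 3.11 on Veh-Sham and GW-Sham. Defb20, a beta-defensin, stood at 15.63, 3.43, 5.21 and 3.77, and Ovch2, a protease of the proximal duct, at 14.70, 2.90, 2.58 and 2.63. Cst11, an epididymal cystatin, read 13.15 on GW-SA against 3.70 on Veh-SA, with 3.09 on Veh-Sham and 2.98 on GW-Sham. So part of the list was high on GW-SA alone and another part on GW-SA and Veh-Sham.

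Of 46 measured members of the epididymal list, 37 were higher and 2 lower on GW-SA, with a median difference of 3.85; 37 passed the floor. Background for the higher count is 15.1% over all 19505 genes, and 19.4% for the lower. The list median was log2 8.55 on GW-SA, 3.66 on Veh-SA, 6.99 on Veh-Sham and 3.86 on GW-Sham. On Veh-SA 41 of the 46 members lay within background, so that array held next to no epididymal signal. Genes of epithelial structure followed the same order, with 23 of 24 higher and a median of log2 9.42 on GW-SA, 4.22 on Veh-SA, 6.76 on Veh-Sham and 5.82 on GW-Sham. Cdh1, the adhesion protein E-cadherin, read 14.07 on GW-SA against 4.46 on Veh-SA, with 10.67 on Veh-Sham and 9.40 on GW-Sham. Krt8 and Krt18, the paired keratins of simple epithelia, read 12.08, 6.76, 8.86 and 8.09 for the first and 11.62, 6.01, 9.05 and 8.04 for the second. Epcam, an epithelial adhesion molecule, stood at 9.81, 5.04, 8.49 and 6.84.

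Seminal vesicle genes were also high on GW-SA. Svs2, a semenogelin-like seminal vesicle secretion, read 15.17 on GW-SA against 5.13 on Veh-SA, with 9.10 on Veh-Sham and 9.19 on GW-Sham, and Svs5 read 14.32, 4.39, 7.05 and 8.42. Of 12 members of that list, 8 were higher and 1 lower, with a median difference of 3.50. Sperm and testis genes were weak on GW-SA, and 18 of 22 members lay within background on both overload arrays. Of the 22, 9 were higher and 5 lower, with a median difference of 0.13. Prm1, a protamine that packs sperm DNA, read 7.04, 5.13, 17.40 and 4.71, above background on GW-SA and within it on Veh-SA. The same held for Prm2 and Smcp, at least 0.40 and 0.76 higher. The high array of the sperm and testis list was Veh-Sham, with a median of log2 13.90. Genes of the distal epididymis and vas deferens had medians of log2 5.35 on GW-SA and 4.04 on Veh-SA, and were high on both sham arrays, with 10.28 on Veh-Sham. Of the 13 members of that list, 9 lay within background on both overload arrays, and 7 were higher on GW-SA than on Veh-SA. Of these 7, those above background on GW-SA were Spink12, at 11.41 on GW-SA and at least 5.07 higher, Pate4 with 9.39, 3.07, 5.42 and 5.52 and Cftr, a chloride channel, with 8.16, 5.85, 7.16 and 5.60. The 4 arrays differed in which tract transcripts they carried. The part of these transcripts in any other difference was not tested.

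Many of the other transcripts with large positive differences were also high on Veh-Sham. Of the 15 highest, 10 were also at least 4 log2 units higher on Veh-Sham than on Veh-SA. Cuzd1 read 16.49 on GW-SA against 7.50 on Veh-SA, with 18.09 on Veh-Sham and 6.73 on GW-Sham; Eppin, an epididymal and testicular protease inhibitor on the sperm surface, read 10.98, 2.92, 11.13 and 3.03. Prom1, a membrane protein of epithelial protrusions, read 13.50, 6.02, 11.76 and 8.49, and Ptgds, the lipocalin-type prostaglandin D synthase, 12.97, 5.03, 13.58 and 6.20. Slc7a5, the light chain of a large neutral amino acid transporter, read 13.61, 5.77, 9.79 and 6.65. Each of these was highest on GW-SA and Veh-Sham, as the epididymal and epithelial lists were. Cuzd1, Prom1 and Slc7a5 were also above background on GW-Sham, and Slc7a5 was higher on GW-SA than on Veh-Sham by a wide margin. Cxcl13, Ccl3 and Timp1 in the same group of 15 did not share the order with Veh-Sham high. For Cxcl13 Veh-Sham lay near Veh-SA, and Ccl3 and Timp1 were within background on every array but GW-SA. They are described with the immune genes. Over all 19505 genes, 57 stood on GW-SA at least 4 log2 units above every other array. Of these 57, 21 were members of the tract and epithelial lists, and 47 of the 57 passed the floor.

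Both overload arrays carried adipocyte genes at high levels, and GW-SA carried epididymal transcripts as well. Mature adipocyte genes had a list median of log2 16.17 on GW-SA, 16.51 on Veh-SA, 16.34 on Veh-Sham and 16.50 on GW-Sham. Adipoq, the adipocyte hormone adiponectin, read 19.34, 19.67, 19.59 and 19.58. Fabp4, the fatty acid carrier of adipocytes, was 19.92, 19.74, 19.90 and 19.91; its Veh-SA reading is the highest value of that array, shared by 8 rows, so its difference has no meaning beyond that ceiling. Of 18 adipocyte genes, 0 were higher and 10 lower, with a median difference of -0.70. In bulk tissue, fewer cells of a type, less RNA per cell and RNA of another tissue in the sample cannot be told apart. On GW-SA the epididymal Gpx5, at 19.53, read as high as Adipoq. The part of tract RNA in the adipocyte difference was not tested. Endothelial genes were lower too, 11 of 15 with 0 higher and a median of -0.74, which is -0.046 when differences are centred on adipocyte genes. Cdh5, the endothelial cadherin, read 12.54, 13.36, 12.96 and 13.19 and Tek, the angiopoietin receptor, 8.37, 9.69, 8.77 and 8.94. Pecam1 differed by -0.39, short of 1.5-fold, and GW-SA was the lowest array for 8 of the 15. Fibroblast and progenitor genes differed less, with 4 of 14 lower, 0 higher and a median of -0.22. Of 12 mesothelial genes, 5 were higher and 1 lower, with a median of 0.02. The higher ones were Upk1b, at 1.38, and 4 that other epithelia share, Krt8, Krt18, Krt19 and Cdh1. Upk3b, a uroplakin, read 12.58, 12.98, 13.48 and 14.17 and stayed within 1.5-fold.

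Of 15 smooth muscle genes, 8 were higher on GW-SA than on Veh-SA and 1 was lower, against 15.1% and 19.4% of all genes. The list median was highest on the sham arrays. Cnn1, a calponin of smooth muscle, read 10.17, 6.55, 15.23 and 15.31. Acta2, smooth muscle actin, read 14.88, 12.97, 16.40 and 16.24. Myh11, the smooth muscle myosin heavy chain, read 8.99, 8.61, 12.71 and 12.41, within 1.5-fold between the overload arrays. Rgs5 was the lower member, at -1.19, with Veh-SA as its highest array. The 15 members had a median level of log2 9.52 on GW-SA, 8.61 on Veh-SA, 11.45 on Veh-Sham and 12.10 on GW-Sham. Of the skeletal muscle genes, 17 of 20 lay within background on both overload arrays, Mylpf among them at 3.47 on Veh-SA and 3.07 on GW-SA.

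**Figure D2:**
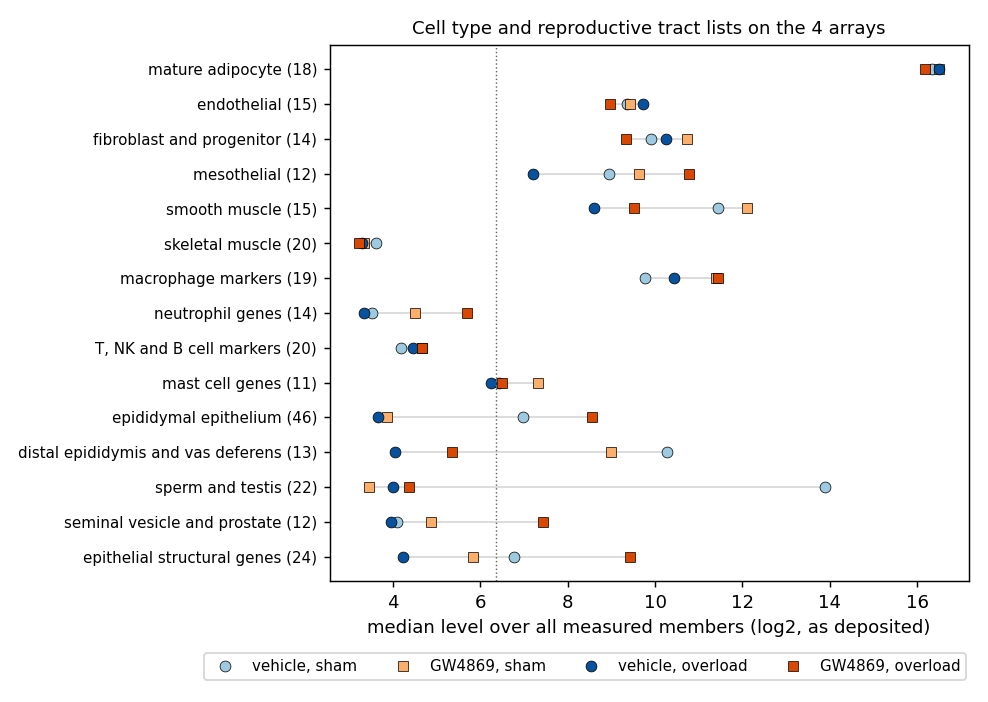
Median level (log2, horizontal axis) over all measured members of each cell type and reproductive tract list, 1 point per array; the number of members is in brackets and the dotted line marks background. GW4869 overload is the highest array for the epididymal, seminal vesicle and epithelial lists and the lowest for mature adipocyte and endothelial genes, while the sperm and testis list is high on the vehicle sham array.

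Among the lipid lists, fatty acid synthesis had the lowest median on GW-SA relative to Veh-SA (levels below again run GW-SA, Veh-SA, Veh-Sham, GW-Sham). Of 19 genes of fatty acid synthesis, 11 were lower and 2 higher, with a median of -1.43, against 18.8% lower and 18.4% higher over all genes above the floor. GW-SA was the lowest of the 4 arrays for 15 of them, where 22.3% of all genes had that order. Fasn, which builds palmitate from malonyl-CoA, read 12.58 on GW-SA against 15.65 on Veh-SA, with 15.93 on Veh-Sham and 16.22 on GW-Sham, 8.42-fold lower than on Veh-SA. No other gene admitted by the naming rule had a lower difference. The other 3 arrays lay within a unit of each other for Fasn, and GW-SA stood alone below them.

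Several genes that feed Fasn were lower as well. Acss2, which makes acetyl-CoA from acetate, read 8.03 on GW-SA against 10.40 on Veh-SA, with 9.80 on Veh-Sham and 10.16 on GW-Sham. Acaca, the carboxylase that makes malonyl-CoA, read 11.49, 13.14, 13.11 and 13.31. Me1, the malic enzyme that supplies NADPH, read 13.11, 14.81, 14.72 and 15.11. For each of these 3, GW-SA was below all other arrays. Slc25a1, the carrier that exports citrate from mitochondria, was 2.96-fold lower with 16.61 on Veh-SA and 15.04 on GW-SA, and 16.25 and 16.63 on Veh-Sham and GW-Sham. Acly, which splits that citrate in the cytosol, was nearly level between the overload arrays, with 13.39, 13.65, 14.61 and 14.76. Acacb, the carboxylase on the mitochondrial surface, read 6.86, 8.96, 7.09 and 7.80. Mlxipl, the carbohydrate-response factor ChREBP that drives lipogenic genes, read 8.52, 10.25, 9.28 and 9.76, and Thrsp, a lipogenic protein of fat, 15.35, 16.81, 16.80 and 17.13. Aacs, which activates acetoacetate, had 9.82, 11.25, 10.05 and 11.59. Srebf1, the sterol-response factor of lipogenesis, is not analysed here.

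The desaturases and elongases did not follow. Scd1, the stearoyl-CoA desaturase, read 19.61, 19.73, 19.74 and 19.85, close to the ceiling of the arrays. Elovl6, which lengthens palmitate, was 6.95-fold higher, with 12.24 on GW-SA against 9.44 on Veh-SA, with 10.63 on Veh-Sham and 11.13 on GW-Sham. Fads2, the delta-6 desaturase of polyunsaturated fatty acids, was higher by 5.25, with 15.14 on GW-SA against 9.89 on Veh-SA, with 14.87 on Veh-Sham and 14.31 on GW-Sham. For Fads2 the vehicle overload array was the low one, and GW-SA lay beside both sham arrays. Fads1 and Elovl5 differed by less than 1.5-fold, at 0.55 and -0.23.

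Triglyceride synthesis was lower in 10 of 13 genes and higher in 1, with a median of -0.92. Dgat2, which adds the last acyl chain to newly made fat, read 14.45 on GW-SA against 15.86 on Veh-SA, with 16.45 on Veh-Sham and 16.54 on GW-Sham. Agpat2, an acyltransferase whose loss causes lipodystrophy, read 14.58, 16.02, 16.01 and 16.17. Mogat1, a monoacylglycerol acyltransferase, read 7.76, 10.10, 9.34 and 9.50. These 3 genes had GW-SA as the lowest array. Dgat1 and Gpam showed another order. Dgat1, the other final acyltransferase, read 10.35, 11.36, 9.18 and 10.37, and Gpam, the mitochondrial enzyme of the first step, 15.04, 15.95, 14.12 and 15.09; Veh-SA was their highest array and GW-SA lay at or below GW-Sham but above Veh-Sham. Gpd1, which makes glycerol phosphate, differed by -1.24, and Pck1, the enzyme of glyceroneogenesis, read 16.83, 17.48, 16.78 and 16.72. Lpin2, near background on every array, was the member that was higher.

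Lipolysis genes were lower by a smaller amount. Of 16, 7 were lower and 1 higher, and the median was -0.45. Pnpla2, the lipase ATGL that starts triglyceride breakdown, read 18.54, 18.77, 18.35 and 18.53 and did not reach 1.5-fold. Lipe, hormone-sensitive lipase, read 17.06 on GW-SA against 17.85 on Veh-SA, with 16.94 on Veh-Sham and 17.42 on GW-Sham. Mgll, which splits monoglycerides, was 14.08, 14.78, 14.57 and 14.51. G0s2, an inhibitor of Pnpla2, had the largest difference of the list, -1.77, with 12.62 on Veh-SA and 10.85 on GW-SA, and 11.32 and 11.14 on Veh-Sham and GW-Sham. Abhd5, the co-activator of Pnpla2, hardly differed, at 11.41 and 11.08 on Veh-SA and GW-SA. Plin1, the perilipin that guards the droplet, read 14.81, 15.75, 15.15 and 15.19; Plin4 differed by -0.87, and Bscl2, the droplet-assembly protein seipin, by -1.19. Plin2, the perilipin of many cell types, read 14.06, 13.74, 13.31 and 14.36 and stayed within 1.5-fold.

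The signalling that controls lipolysis had 7 of 17 genes lower and 1 higher, median -0.45. Ptger3, a prostaglandin E2 receptor that lowers cAMP in adipocytes, read 8.61 on GW-SA against 10.61 on Veh-SA, with 10.06 on Veh-Sham and 10.45 on GW-Sham. Prkar2b, the regulatory subunit of protein kinase A that prevails in fat, read 15.41, 16.75, 15.69 and 15.83. Pde3b, the phosphodiesterase through which insulin lowers cAMP, was 15.68, 16.55, 15.47 and 15.85. Brakes and accelerators were thus lower together. Adcy5, an adenylyl cyclase, differed by -1.03 and Prkaca, a catalytic subunit of the kinase, by -0.94. Hcar2, a Gi-coupled receptor that restrains lipolysis, read 9.55, 9.91, 7.52 and 9.04. Gnai2 was the higher member, with 15.59, 14.86, 15.10 and 15.31.

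Uptake genes were near the middle of all genes, with 4 lower, 2 higher of 15 and a median of -0.17. Lpl, the lipase that frees fatty acids from lipoproteins, read 18.06, 18.67, 18.41 and 18.49, and Gpihbp1, which holds it on capillaries, 10.73, 11.63, 10.76 and 11.13. Acsl4, an acyl-CoA synthetase for arachidonate, was higher by 1.38, with Veh-SA as its lowest array. Cholesterol synthesis was mixed, 4 lower and 3 higher of 17. Insig1, which retains the sterol sensor in the endoplasmic reticulum, read 10.47, 12.01, 11.13 and 11.80, and Hmgcs1, an early enzyme of the pathway, 13.32, 13.99, 13.94 and 13.68. Srebf2, the sterol-response factor, was 0.95 higher and Pmvk, a kinase of the pathway, 1.73 higher, with 10.18, 8.46, 7.46 and 8.71.

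The pathway that GW4869 acts on was measured as transcript only. Smpd3, the neutral sphingomyelinase that GW4869 inhibits, read 7.94, 8.09, 7.70 and 9.23, and Smpd2, the neutral form found first, 8.64, 8.27, 8.31 and 8.38. Smpd1, the acid form, was 9.14, 9.06, 8.70 and 9.67. None of these 3 reached 1.5-fold between the overload arrays, and GW-Sham was the highest array for Smpd3. Sgms2, which makes sphingomyelin at the cell surface, was 2.12 higher, with 8.81, 6.69, 9.65 and 8.44, and Sptlc2, a subunit of the first enzyme of ceramide synthesis, 1.49 higher, with 12.91, 11.41, 11.43 and 12.19. Kdsr, the following enzyme, was lower, at -1.13. Ugcg, which makes glucosylceramide, read 8.96, 7.71, 8.36 and 8.51. Of 25 members, 6 were higher and 6 lower. Among 24 genes of vesicle formation and release, 8 were higher and 1 lower, median 0.33. Cd9, a tetraspanin of vesicles that epithelia also carry, read 12.09 on GW-SA against 9.35 on Veh-SA, with 9.20 on Veh-Sham and 10.44 on GW-Sham. Cd63 read 13.83, 13.20, 12.91 and 13.62 and Cd81 18.03, 18.03, 18.10 and 18.33, both tetraspanins used as vesicle markers. Rab27a, a docking GTPase for secretory vesicles, differed by 0.44.

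Adipokines and adipocyte regulators were lower on GW-SA as deposited, and their medians turn to 0.021 and 0.072 when differences are centred on adipocyte genes. Of 15 adipokine genes, 9 were lower and 1 higher, median -0.68. Lep, leptin, read 14.28, 15.19, 15.45 and 15.75, and Nrg4, a neuregulin secreted by fat, 13.07, 14.61, 13.32 and 13.49. Rbp4, the retinol carrier, was lower, at -1.20. Of 18 regulators, 10 were lower and 2 higher, median -0.63. Pparg, the nuclear receptor that directs adipocyte differentiation, read 14.43 on GW-SA against 15.85 on Veh-SA, with 15.15 on Veh-Sham and 14.58 on GW-Sham. Cebpa, its partner, was 12.68, 13.69, 12.74 and 13.54. Ebf2, a selector of brown and beige fate, read 9.27, 10.68, 9.19 and 9.77. Veh-SA was the highest array for all 3. Cebpd, an early differentiation and stress factor, went the other way, with 11.31, 9.62, 8.40 and 10.16. Tfap2a, a transcription factor that epithelia also express, read 4.28 on Veh-SA and 6.96 on GW-SA, and 5.33 and 5.91 on Veh-Sham and GW-Sham, at least 0.62 higher on GW-SA.

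Insulin signalling and glucose uptake genes were lower in 14 of 24 cases and higher in 3 on the scale as deposited. Their median was -0.75, which is -0.049 when differences are centred on adipocyte genes. Slc2a4, the insulin-responsive glucose carrier GLUT4, read 9.74 on GW-SA against 11.15 on Veh-SA, with 9.77 on Veh-Sham and 10.63 on GW-Sham. Irs1, the docking protein of the insulin receptor, read 8.16, 10.12, 7.44 and 9.18. Akt2, the kinase that moves GLUT4 to the surface, was 11.60, 12.95, 12.32 and 11.86, and Pik3r1, the regulatory subunit of phosphoinositide 3-kinase, 14.29, 16.07, 14.52 and 15.82. The receptor Insr itself differed by -0.54. Slc2a1, the insulin-independent carrier GLUT1, was higher, with 10.94, 9.53, 9.10 and 9.90. So the 2 glucose carriers differed in opposite directions. Slc2a1 is not particular to fat cells.

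**Figure D3:**
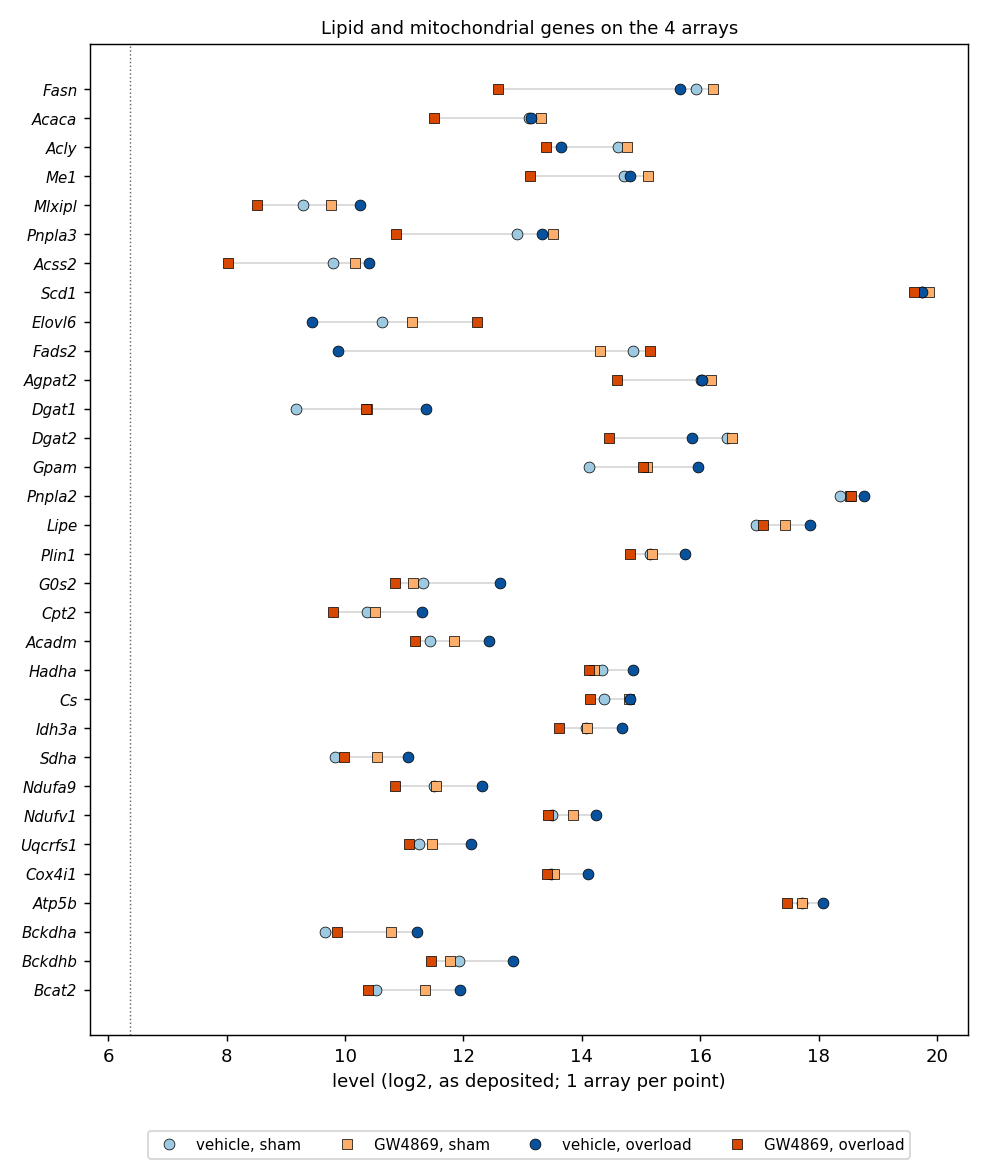
Level (log2, horizontal axis) of lipid and mitochondrial genes, 1 point per array, with the dotted line at background. On the scale as deposited, the GW4869 overload array is the lowest point for Fasn, Acaca, Me1 and Pnpla3, lies far above vehicle overload for Fads2 and Elovl6, and is lower than vehicle overload throughout the mitochondrial genes.

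Mitochondrial genes were lower as a body on the scale as deposited, in small steps that most members shared. Mitochondria burn fatty acids by beta-oxidation, feed the products into the citric acid cycle and pass electrons through complexes I to IV to drive ATP synthase; in white fat they also break down branched-chain amino acids. Of 23 beta-oxidation genes, 18 were lower and 0 higher, median -0.76. Veh-SA was the highest array for 20 of them, an order that 30.1% of all genes had, and GW-SA the lowest for 12. Cpt2, which re-forms acyl-CoA inside the mitochondrion, read 9.79 on GW-SA against 11.31 on Veh-SA, with 10.38 on Veh-Sham and 10.50 on GW-Sham. Acadm, the medium-chain dehydrogenase, read 11.18, 12.43, 11.43 and 11.84. Hadha, a subunit of the trifunctional protein, was 14.12, 14.86, 14.34 and 14.20. Cpt1a, the gate of entry in many tissues, was not lower: it read 10.66, 10.11, 10.06 and 10.53. Etfa, an electron carrier for the dehydrogenases, differed by -1.49. Ppara and Cpt1b read within background on both overload arrays.

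In peroxisomes, which shorten very long chains, 7 of 15 genes were lower and 1 higher, median -0.58. Ehhadh, the bifunctional enzyme, read 9.94, 11.32, 9.87 and 10.54, and Pex11a, which divides peroxisomes, 9.41, 11.38, 9.84 and 10.31. Acox3, a branched-chain oxidase, was the higher member by 1.28. The citric acid cycle and the pyruvate dehydrogenase complex had 15 of 21 lower and 1 higher, median -0.88. Pcx, pyruvate carboxylase, which tops up the cycle and supports lipogenesis, read 12.79 on GW-SA against 14.77 on Veh-SA, with 13.71 on Veh-Sham and 14.35 on GW-Sham. Cs, citrate synthase, was 14.14, 14.80, 14.38 and 14.80, and Idh3a, a subunit of the NAD-linked isocitrate dehydrogenase, 13.61, 14.68, 14.07 and 14.08. Pdk4, a kinase that shuts pyruvate dehydrogenase, was the higher member, with 10.46, 9.65, 8.71 and 11.02; its highest array was GW-Sham.

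Complex I genes were lower in 23 of 36 cases and higher in 0, median -0.70, and GW-SA was the lowest of the 4 arrays for 28; on adipocyte-centred differences the median is 0.0009. Ndufa9 read 10.84 on GW-SA against 12.31 on Veh-SA, with 11.50 on Veh-Sham and 11.53 on GW-Sham. Ndufv1, which carries the flavin site, was 13.43, 14.24, 13.49 and 13.85, and Ndufs1, the largest iron-sulphur subunit, 11.07, 11.74, 11.49 and 11.34. The members spanned -1.47 to 0.15, so none stood 1.5-fold higher. Complexes II and III followed with 9 of 14 lower and 0 higher, median -0.67, which turns to 0.027 on adipocyte-centred differences. Sdhb, an iron-sulphur subunit of succinate dehydrogenase, read 12.81, 13.89, 13.16 and 13.48, and Uqcrfs1, the Rieske protein, 11.07, 12.12, 11.25 and 11.47. Complex IV (5 of 16 lower, 0 higher, median -0.34) and ATP synthase (5 of 16 lower, 2 higher, median -0.41) differed less. Cox4i1, a core regulatory subunit of complex IV, was 13.42, 14.11, 13.47 and 13.53. Atp5g1, which encodes a rotor ring subunit, was higher by 1.58, and Atpif1, the inhibitor of ATP synthase, by 1.33; Veh-SA was their lowest array.

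Branched-chain amino acid breakdown was lower almost throughout. In all, 17 of 18 genes were lower and 0 higher, with a median of -1.20 and Veh-SA as the highest array for 17. Bcat2, the transaminase that opens the pathway, read 10.38 on GW-SA against 11.94 on Veh-SA, with 10.52 on Veh-Sham and 11.35 on GW-Sham. Bckdha and Bckdhb, subunits of the dehydrogenase that commits it, read 9.86, 11.21, 9.65 and 10.78 for the first and 11.45, 12.83, 11.93 and 11.77 for the second. Mccc2, of leucine breakdown, had the largest difference, -1.77. Bckdk, the kinase that switches the dehydrogenase off, differed by -0.20. Enzymes of the route were lower while the kinase that inhibits it stayed within 1.5-fold.

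Mitochondrial ribosomal proteins were lower in 14 of 72 cases and higher in 2, a lower share near the 18.8% of all genes, with a median of -0.26. Mrps15 had the largest difference, with 7.42, 8.89, 7.57 and 7.78. Among import and chaperone genes, 5 of 23 were lower and 2 higher, with the lower share again near that of all genes. The higher pair was Hspd1 and Hspe1, the chaperonin of the matrix and its lid, at 0.66 and 0.93. Of 16 genes of mitochondrial biogenesis and dynamics, 6 were lower and 0 higher, median -0.44. Ppargc1a, the co-activator that induces mitochondrial genes, read 7.74 on GW-SA against 8.90 on Veh-SA, with 6.98 on Veh-Sham and 6.90 on GW-Sham, and Tfam, which packs mitochondrial DNA, 6.92, 7.01, 7.55 and 7.23. Veh-SA was the high array for Ppargc1a. Thermogenic genes were weakly measured: 11 of 14 lay within background on both overload arrays, Ucp1, the uncoupler of brown fat, at 3.20 on Veh-SA and 2.34 on GW-SA. Over all 14 members 7 were lower and 1 higher, median -0.62.

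Cytosolic ribosomal proteins went the other way from mitochondrial enzymes. All 55 measured genes had positive differences between 0.08 and 1.40; 21 were higher by 1.5-fold and 0 lower, and GW-SA was the highest array for 52, an order that 26.7% of all genes had. Rplp0, a stalk protein of the large subunit, read 14.09, 13.09, 13.38 and 13.04, and Rps26, of the small subunit, 13.73, 12.33, 13.37 and 12.95. Ribosomal protein genes have many near-identical pseudogenes, so their probe signal can be shared between loci.

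The scale matters for all these lower lists. The adipocyte list itself had a median of -0.70, so levels relative to adipocyte genes give another picture. When each array was centred on its adipocyte list median, 0.34 was added to every difference, and the medians became -0.58 for triglyceride synthesis, -0.43 for beta-oxidation, -0.55 for the citric acid cycle and -0.36 for complex I, all below 1.5-fold. When the median adipocyte difference was set to 0, 0.70 was added and every difference between -0.70 and 0 turned positive. The medians were then -0.73 for fatty acid synthesis, still past 1.5-fold, and -0.50 for branched-chain amino acid breakdown, -0.22 for triglyceride synthesis, -0.19 for the citric acid cycle and -0.067 for beta-oxidation, all short of it.

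**Figure D4:**
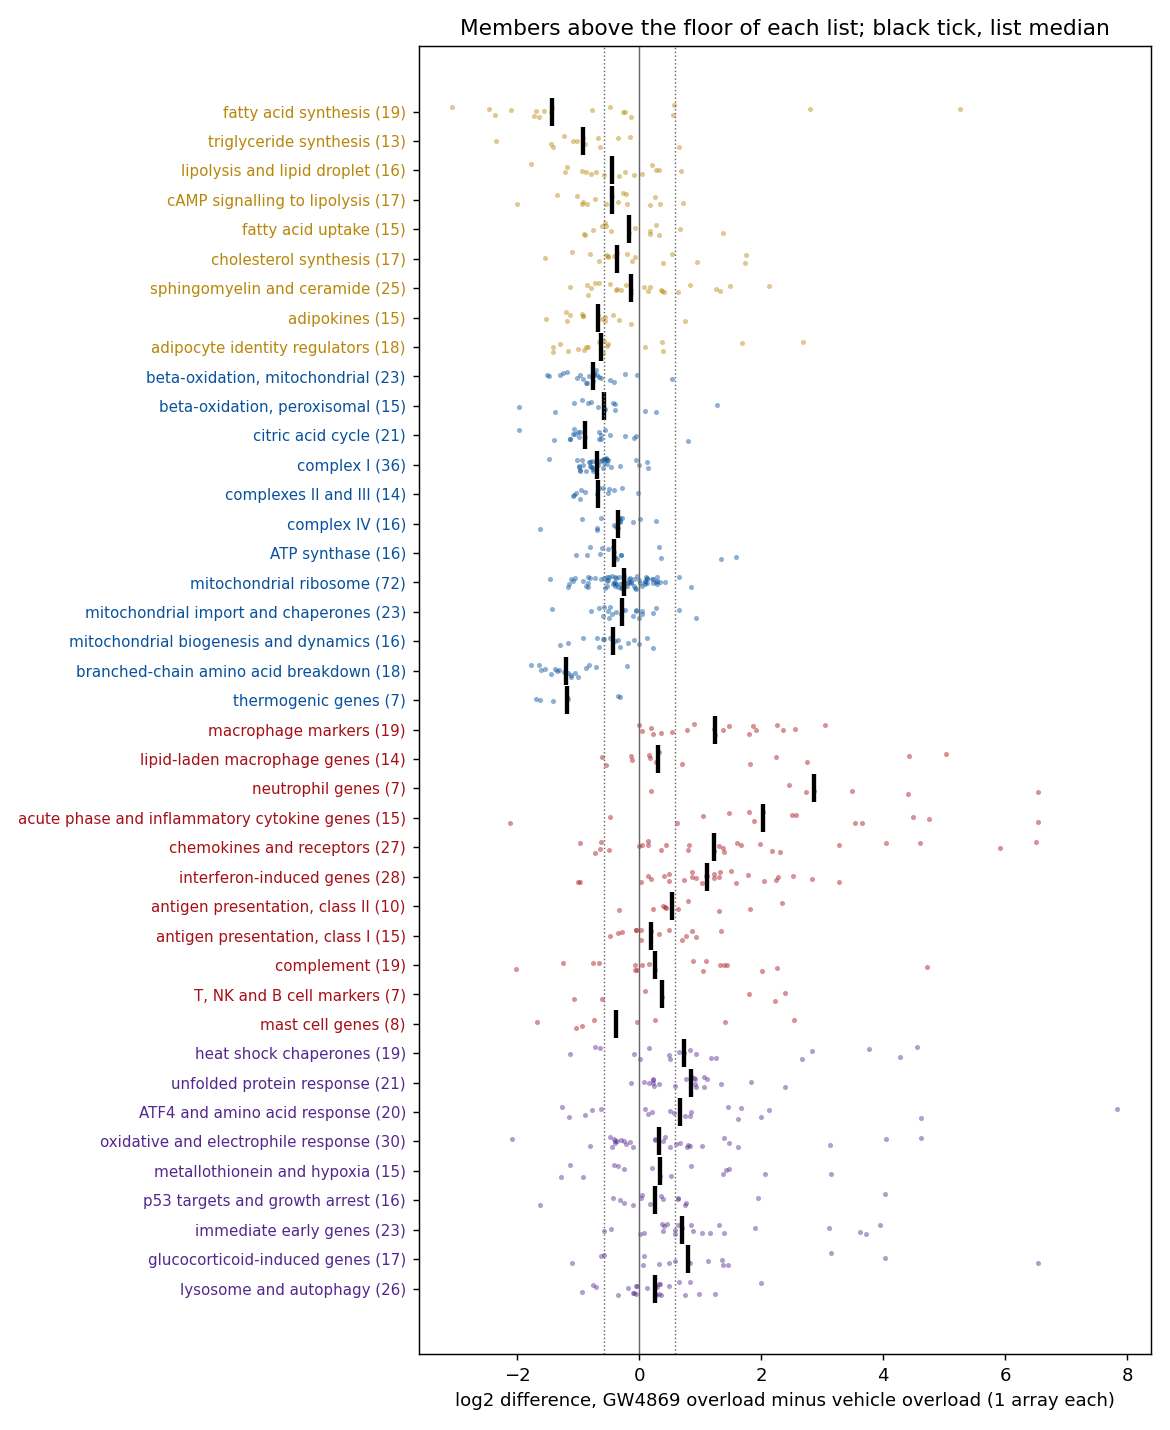
Difference between the 2 overload arrays (log2, horizontal axis) of every member above the floor, 1 point per gene, for lipid, mitochondrial, immune and stress lists; black ticks are list medians, dotted lines mark 1.5-fold and brackets give the number of genes. Lipid and mitochondrial medians lie left of 0, of which those between -0.70 and 0 turn positive once differences are centred on adipocyte genes, and most immune and stress medians lie right of 0.

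The macrophage, neutrophil, acute phase, chemokine and interferon-induced lists had positive median differences above the floor. Some neutrophil, acute phase, chemokine and interferon-induced members passed that floor only through GW-SA. Over all measured members the medians of these lists were 1.62, 2.03, 1.30 and 1.17. In what follows, 4 levels in a row stand for GW-SA, Veh-SA, Veh-Sham and GW-Sham. Tissue macrophages take up debris and lipid, neutrophils carry S100 proteins and arrive early in inflammation, and acute phase proteins are secreted in response to cytokines. Of 19 macrophage markers, 13 were higher and 0 lower, median 1.25. Adgre1, the mouse macrophage marker F4/80, read 11.02 on GW-SA against 8.47 on Veh-SA, with 7.97 on Veh-Sham and 9.52 on GW-Sham. Itgam, the integrin CD11b of myeloid cells, read 11.65, 9.29, 8.55 and 10.81, and Msr1, a scavenger receptor, 8.13, 5.08, 5.77 and 7.07. Lyz2, lysozyme, was 16.46, 15.08, 14.37 and 16.50. In contrast, Mrc1, the mannose receptor of resident macrophages, read 13.37, 13.33, 13.05 and 13.92, and Csf1r, the growth factor receptor of the lineage, 12.05, 11.69, 11.16 and 12.75, neither 1.5-fold apart. Cd163, another resident marker, was 10.04, 9.81, 8.98 and 10.58. Lyve1, a receptor of perivascular macrophages and lymphatic vessels, was 0.78 higher. So markers of macrophages in general were higher, while Mrc1, Csf1r and Cd163 were level. GW-SA was the highest array for 10 of 19, and Veh-SA lay below GW-Sham for Adgre1, Itgam and Msr1.

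Lipid-laden macrophage genes were divided. Gpnmb, a membrane glycoprotein of lipid-filled macrophages, read 14.53 on GW-SA against 9.50 on Veh-SA, with 7.66 on Veh-Sham and 13.08 on GW-Sham, 32.5-fold higher. Atp6v0d2, a proton pump subunit of such cells and of osteoclasts, read 12.62, 8.20, 6.55 and 10.49. Trem2, their lipid-sensing receptor, was 7.45, 6.75, 6.56 and 8.54. Lgals3, a galectin of activated macrophages, was 11.06, 8.82, 8.75 and 10.92. For these 4 genes GW-Sham was also above both vehicle arrays, so both GW4869 arrays lay above both vehicle arrays. Of 14 members, 6 were higher and 1 lower, median 0.30; Mmp12 (13.55, 13.36, 12.57 and 14.62) and Lipa (10.74, 10.58, 9.86 and 11.12) were level. Lysosomal and autophagy genes had 6 of 26 higher and 3 lower, against 18.4% and 18.8% of all genes above the floor. Sqstm1, the autophagy receptor p62, read 14.41, 12.42, 12.05 and 12.68.

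Neutrophil genes lay mainly within background on Veh-SA, and some left it on GW-SA: 13 of 14 were within it on Veh-SA and 7 on GW-SA. Of the 7 above the floor, some of which passed it only through GW-SA, 6 were higher and 0 lower, median 2.87. Over all 14 the counts were 9 and 0, median 1.62, against 15.1% and 19.4% of all genes without a floor. Differences inside background are among these. S100a8 read 8.63 on GW-SA against 5.14 on Veh-SA, with 3.44 on Veh-Sham and 4.90 on GW-Sham, at least 2.28 higher, and its partner S100a9 7.94, 3.53, 3.50 and 4.92. Csf3r, the G-CSF receptor of neutrophils, read 8.72, 5.98, 4.93 and 5.83. Retnlg was 8.18, 5.32, 3.56 and 5.79, and Clec4d, a myeloid lectin, 7.94, 5.49, 4.02 and 6.22. Each of these 5 was above background on GW-SA and within it on Veh-SA.

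Acute phase and cytokine genes above the floor were higher in 13 of 15 cases and lower in 1, with a median of 2.03. Over all 23 measured, 18 were higher and 2 lower, against 15.1% and 19.4% of all genes without a floor, but 8 lay within background on both overload arrays, so some of these differences are inside it. Lcn2, a siderophore-binding lipocalin of neutrophils, fat and epithelia, read 19.70 on GW-SA against 13.16 on Veh-SA, with 14.73 on Veh-Sham and 14.19 on GW-Sham. Saa3, serum amyloid A of fat and macrophages, read 12.06, 8.53, 7.55 and 9.90. Il1b, the cytokine interleukin 1 beta, was above background on GW-SA alone, with 9.88, 5.13, 4.02 and 4.88. Il1rn, its antagonist, read 8.24, 3.75, 2.54 and 5.84. Both the cytokine and its antagonist were thus higher. Tnf, tumour necrosis factor, lay within background on every array, while Il6, interleukin 6, left it on GW-SA alone, with 7.88, 4.27, 2.74 and 3.42; neither passed the floor on its mean. Icam1 and Vcam1, adhesion molecules induced on endothelium, read 9.01, 6.44, 5.47 and 6.83 for the first and 9.44, 7.55, 7.58 and 8.03 for the second. Hp, haptoglobin, a major secreted product of fat, differed by 0.61. Orm1, orosomucoid, was lower, with 9.39, 11.51, 11.23 and 11.59. Ptgs2, cyclo-oxygenase 2, which the distal epididymis and vas deferens express strongly, read 6.18, 2.52, 14.26 and 14.30, so its order over the arrays was that of the distal tract.

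Among chemokines and their receptors above the floor, 16 of 27 were higher and 4 lower, median 1.22. Over all 37 measured, 22 were higher and 4 lower, against the same 15.1% and 19.4%, but 18 lay within background on both overload arrays, so some of these differences are inside it. Ccl2, which recruits monocytes, read 10.94 on GW-SA against 6.34 on Veh-SA, with 5.11 on Veh-Sham and 7.33 on GW-Sham, and Ccl7, of the same receptor, 9.45, 5.41, 5.21 and 7.45. Ccl3, a macrophage chemokine, was 9.65, 3.74, 3.49 and 5.96. Cxcl13, which attracts B cells, had a large difference, 6.51, with 9.82 on Veh-SA and 16.33 on GW-SA, and 9.12 and 15.22 on Veh-Sham and GW-Sham. GW-Sham was far above both vehicle arrays for Cxcl13 as well. Cxcl10, an interferon-induced chemokine, read 7.90, 4.62, 4.27 and 4.82, while Cxcl9, its close relative, was lower, with 10.11, 11.08, 10.02 and 10.52. Ccl11, eotaxin, was 13.45, 14.17, 12.91 and 13.81. Timp1, an inhibitor of matrix proteases that cytokines induce, was above background on GW-SA alone, with 9.64, 3.29, 3.79 and 5.98. Ccl2, Ccl3 and Ccl7 were higher, while Cxcl9 and Ccl11 were lower.

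Interferon-induced genes were higher in 20 of 28 cases above the floor and lower in 2, against 18.4% and 18.8% of all genes there. Their median was 1.11. Over all 32 measured the counts were 23 and 2, against 15.1% and 19.4%. GW-SA was the highest array for 25 of 28. Ifit3 read 12.16 on GW-SA against 9.92 on Veh-SA, with 9.41 on Veh-Sham and 10.61 on GW-Sham. Irf7, a master regulator of the type I response, read 8.77, 6.50, 5.57 and 7.75, and Irf9, part of the factor that receptors activate, 9.09, 7.50, 6.96 and 7.51. Oasl2, an oligoadenylate synthetase-like protein, was 11.67, 9.15, 8.59 and 11.53. Ifit2 was lower, with 6.23, 7.23, 6.32 and 6.81, unlike its neighbour family members Ifit1 (7.79, 4.95, 4.87 and 6.42) and Ifit3. Isg15, a ubiquitin-like protein, stayed within background at 3.40 and 6.01 on Veh-SA and GW-SA.

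Antigen presentation and complement differed less. Class II genes had 5 of 10 higher and 0 lower: H2-Ab1 read 13.00, 12.57, 12.35 and 13.61 and H2-Aa 14.61, 14.37, 14.65 and 15.01, and neither reached 1.5-fold. Class I genes had 5 of 15 higher and 0 lower; H2-K1 was 15.38, 15.35, 14.72 and 15.38. In complement, 9 of 19 were higher and 4 lower. C1qa, a recognition subunit made by macrophages, read 12.59, 11.15, 10.95 and 12.32, and C3ar1, a receptor on myeloid cells, 11.58, 9.32, 8.77 and 11.22. C6, a late component, was lower, at -2.02. Clu, clusterin, a complement regulator and a major epididymal secretion, read 19.40, 14.68, 16.76 and 16.14. Thus C1q, a macrophage product, and a myeloid receptor were higher while C6 was lower. T, NK and B cell markers were mostly unmeasurable, with 16 of 20 within background on both overload arrays. Mast cell genes were mixed: Cpa3, carboxypeptidase A3, read 9.61, 10.65, 9.47 and 11.29, Mcpt4, a chymase, 6.49 on GW-SA and 8.17 on Veh-SA, and Kit, their growth factor receptor, which other cells share, 8.79, 6.25, 6.01 and 6.04.

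**Figure D5:**
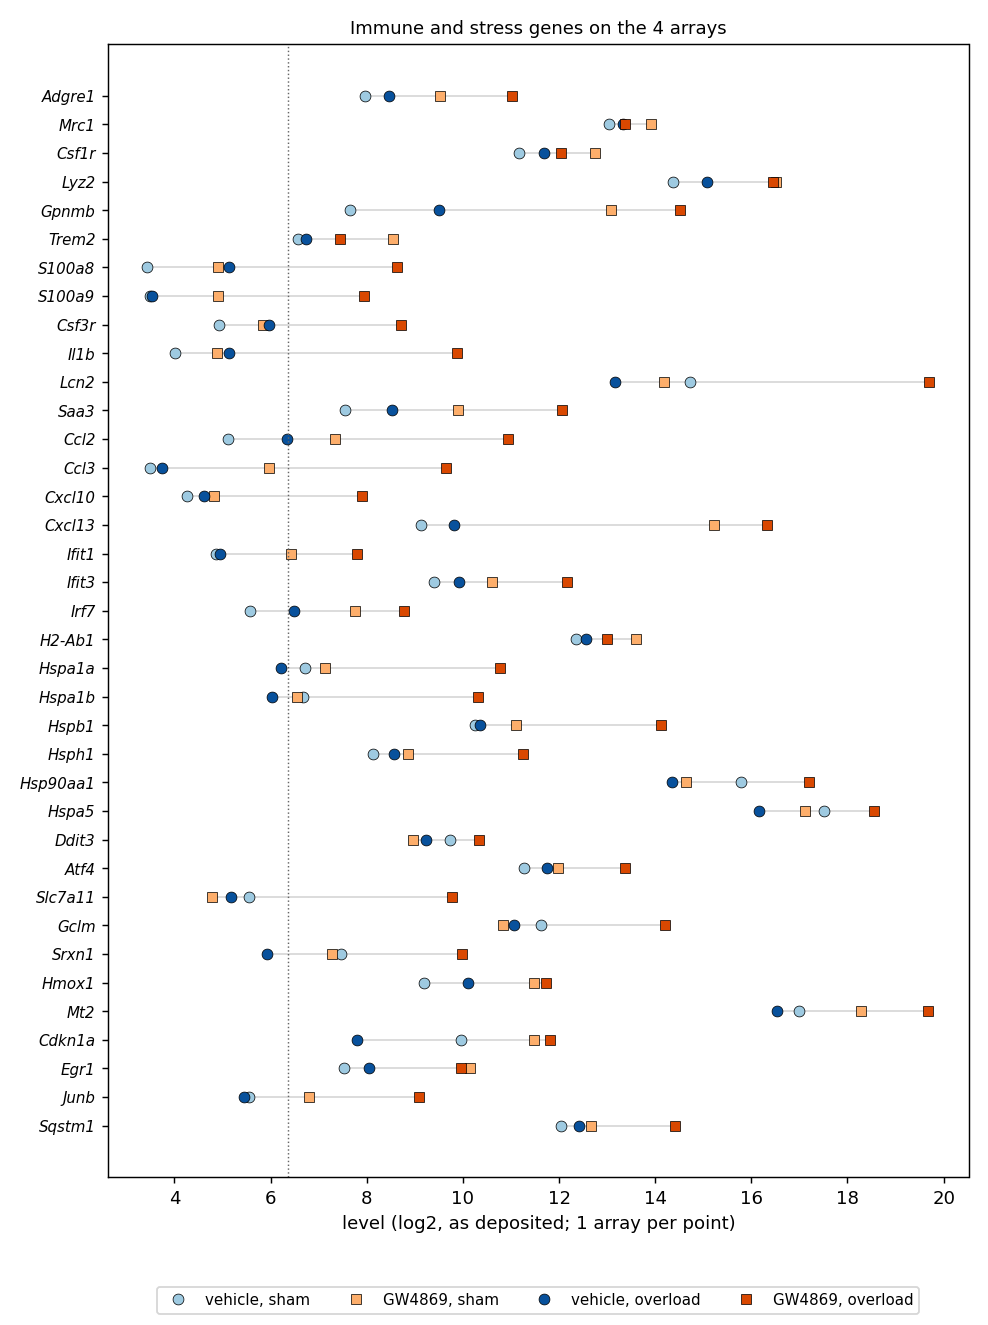
Level (log2, horizontal axis) of immune and stress genes, 1 point per array, with the dotted line at background. The GW4869 overload array is the highest point for neutrophil, cytokine, heat shock and glutathione genes, while the GW4869 sham array lies above both vehicle arrays for Gpnmb, Cxcl13 and Mt2.

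Stress genes were higher on GW-SA in several branches. Heat shock chaperones refold proteins under the factor HSF1, the unfolded protein response enlarges the folding capacity of the endoplasmic reticulum, ATF4 raises amino acid supply, and NRF2 raises glutathione. Of 19 heat shock genes, 11 were higher and 3 lower, median 0.73. Hspb1, the small chaperone HSP27, read 14.11 on GW-SA against 10.35 on Veh-SA, with 10.25 on Veh-Sham and 11.10 on GW-Sham. Hsph1, a co-chaperone of HSP70, read 11.25, 8.58, 8.13 and 8.85, and Hsp90aa1, the inducible HSP90, 17.19, 14.36, 15.78 and 14.64. Hspa1a and Hspa1b, the inducible HSP70 copies, were at least 4.42 and 3.96 higher, with 10.77, 6.21, 6.71 and 7.13 for the first; the copies are nearly identical, so their probes may share signal. GW-SA was the highest array for all 5, and for 9 of the 19 members, where 26.7% of all genes had that order. The median level of the list was highest on Veh-Sham, at log2 11.09, with 10.88 on GW-SA, 10.15 on Veh-SA and 10.69 on GW-Sham. Dnajb1, another member, read 8.74, 7.90, 9.89 and 8.55, with Veh-Sham as its highest array. Other cytosolic members stayed closer: Hspa4, a nucleotide exchange factor, differed by 0.16 and Ahsa1, an activator of HSP90, by -0.09. Serpinh1, the collagen chaperone, was lower, at -0.73, and so was Hspb8, at -1.14.

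Unfolded protein response genes were higher in 12 of 21 cases and lower in 0, against 18.4% and 18.8% of all genes above the floor. Their median was 0.84. GW-SA was the highest array for 16, and the lowest difference of the list was -0.14. Hspa5, the lumenal HSP70 known as BiP, read 18.55 on GW-SA against 16.16 on Veh-SA, with 17.52 on Veh-Sham and 17.12 on GW-Sham. Calr, calreticulin, read 17.53, 16.18, 17.23 and 16.69, and Pdia6, a disulphide isomerase, 14.22, 13.15, 13.55 and 13.36. Hsp90b1, the lumenal HSP90, was 16.28, 15.38, 16.11 and 15.79. For Hspa5, Calr, Pdia6 and Hsp90b1 the next highest array was Veh-Sham, the other array on which the epididymal list stood above background. Secretory epithelia carry much of these chaperones. Veh-Sham was also the next highest array for Hsp90aa1, and for Mthfd2 and Srxn1 of the lists described below. What part epididymal tissue has in these differences was not tested. Ddit3, the factor CHOP, read 10.33, 9.22, 9.73 and 8.97. Of the sensors, Atf6 was 0.84 higher, and Ern1 and Eif2ak3 stayed within 1.5-fold, at 0.58 and 0.24. Xbp1, the target spliced by Ern1, was level at 15.25 and 15.32 on Veh-SA and GW-SA. The array does not separate its spliced form here.

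The promoters of these chaperones share letters. RefSeq promoter windows of GRCm38.p6, the 250 bases before each gene start, were searched on both strands for the endoplasmic reticulum stress element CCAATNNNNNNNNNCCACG. It was found in 8 of the 20 genes of the list that have a promoter in the table, against 0.13% of 27025 genes. Those 8 were Hspa5, Hsp90b1, Calr, Pdia6, Dnajc3, Canx, Creld2 and Syvn1. The list was made of known targets, so the match describes the members and gives no evidence of factor activity. The windows of the 5 that were 1.5-fold higher on GW-SA are shown 5′ to 3′ along the gene, with matches on either strand in capitals.
Hspa5, chr2:34771840-34772089, plus strand: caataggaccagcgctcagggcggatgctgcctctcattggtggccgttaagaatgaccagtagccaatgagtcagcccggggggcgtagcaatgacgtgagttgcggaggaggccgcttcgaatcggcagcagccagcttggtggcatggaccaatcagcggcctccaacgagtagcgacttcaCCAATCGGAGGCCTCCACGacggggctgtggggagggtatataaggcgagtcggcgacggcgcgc
Hsp90b1, chr10:86705445-86705694, minus strand: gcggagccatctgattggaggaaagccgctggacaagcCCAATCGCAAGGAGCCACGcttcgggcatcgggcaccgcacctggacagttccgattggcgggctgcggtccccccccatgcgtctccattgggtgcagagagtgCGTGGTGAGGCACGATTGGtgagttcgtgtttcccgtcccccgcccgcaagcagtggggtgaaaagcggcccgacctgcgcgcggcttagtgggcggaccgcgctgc
Calr, chr8:84846932-84847181, minus strand: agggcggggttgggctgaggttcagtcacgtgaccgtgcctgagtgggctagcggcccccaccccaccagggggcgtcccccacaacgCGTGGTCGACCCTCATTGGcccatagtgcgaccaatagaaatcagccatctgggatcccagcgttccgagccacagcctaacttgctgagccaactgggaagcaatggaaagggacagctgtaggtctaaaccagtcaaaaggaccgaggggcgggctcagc
Pdia6, chr12:17266339-17266588, plus strand: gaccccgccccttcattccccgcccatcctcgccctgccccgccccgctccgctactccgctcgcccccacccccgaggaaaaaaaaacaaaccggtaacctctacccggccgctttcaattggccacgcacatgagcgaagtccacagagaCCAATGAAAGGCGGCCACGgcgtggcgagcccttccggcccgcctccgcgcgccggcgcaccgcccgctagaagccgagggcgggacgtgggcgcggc
Creld2, chr15:88819396-88819645, plus strand: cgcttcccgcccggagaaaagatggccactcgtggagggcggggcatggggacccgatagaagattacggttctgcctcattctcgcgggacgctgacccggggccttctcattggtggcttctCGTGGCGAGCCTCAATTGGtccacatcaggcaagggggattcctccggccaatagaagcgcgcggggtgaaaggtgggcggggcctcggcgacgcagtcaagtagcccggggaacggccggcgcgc

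In Hspa5 the match begins 65 bases before the start, and Hsp90b1 has 2 matches, beginning 212 and 107 bases before it. Genes with the element did not all differ alike. Hspa5 was 2.39, Calr 1.34, Pdia6 1.07, Creld2 0.91 and Hsp90b1 0.90 apart, whereas Dnajc3 (0.31), Canx (0.22) and Syvn1 (0.22) stayed under 1.5-fold. A heat shock element of 3 units, GAANNTTCNNGAA on either strand, was found in 2 of 17 heat shock list genes, Hspd1 and Hspe1, against 0.514% of genes. Hspe1 was 0.93 higher, and its window holds overlapping matches, printed as a single run of capitals to show the adjoining units.
Hspe1, chr1:55087898-55088147, plus strand: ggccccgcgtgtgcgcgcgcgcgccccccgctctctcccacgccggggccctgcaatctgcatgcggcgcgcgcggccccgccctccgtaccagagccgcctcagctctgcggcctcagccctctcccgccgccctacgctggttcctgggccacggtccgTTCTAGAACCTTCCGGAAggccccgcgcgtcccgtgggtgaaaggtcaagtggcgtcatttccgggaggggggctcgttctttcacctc

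Genes of the ATF4 and amino acid response were higher in 10 of 20 cases and lower in 5, against 18.4% and 18.8% of all genes. Their median of 0.66 misses 1.5-fold under all-gene centring (0.58) and without tract genes (0.57). Atf4 itself read 13.37 on GW-SA against 11.75 on Veh-SA, with 11.28 on Veh-Sham and 11.98 on GW-Sham. Slc7a11, the cystine carrier that feeds glutathione synthesis, was above background on GW-SA alone, with 9.78, 5.17, 5.55 and 4.78. Slc3a2, the heavy chain shared by Slc7a11 and Slc7a5, read 17.09, 15.63, 15.58 and 15.76. Mthfd2, of mitochondrial folate metabolism, was 9.51, 7.52, 8.66 and 7.78. Phgdh, the first enzyme of serine synthesis, read 12.20, 13.47, 13.04 and 13.36, Psat1, the second, 12.38, 13.16, 13.11 and 12.58, and Asns, asparagine synthetase, 14.23, 14.85, 14.20 and 14.09. Aldh18a1, an enzyme of proline synthesis, went the other way, at least 0.24 higher, with 6.58, 4.91, 5.21 and 5.01. The composite ATF4 and C/EBP element TGATGNAA was found in 7 of 22 list genes with a promoter, against 3.91% of genes. Slc7a11, the carrier with the largest difference among the 7, has 2 copies in opposite orientation, capitalised below.
Slc7a11, chr3:50443614-50443863, minus strand: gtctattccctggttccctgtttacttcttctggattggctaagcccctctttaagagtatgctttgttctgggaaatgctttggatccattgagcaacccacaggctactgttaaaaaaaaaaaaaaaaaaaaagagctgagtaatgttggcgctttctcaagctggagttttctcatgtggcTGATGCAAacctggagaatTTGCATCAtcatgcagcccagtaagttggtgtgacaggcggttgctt

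Among the 7 genes with that element, Asns and Vldlr were lower (-0.62 and -0.89) and Slc7a11 was at least 3.44 higher, so differences of both signs occurred among genes with the element. Oxidative and electrophile response genes were higher in 12 of 30 cases and lower in 2, against 18.4% and 18.8% of all genes above the floor. Gclm, the modifier subunit of the glutathione-making ligase, read 14.20 on GW-SA against 11.07 on Veh-SA, with 11.63 on Veh-Sham and 10.83 on GW-Sham. Srxn1, sulfiredoxin, read 9.98, 5.93, 7.47 and 7.28, and Txnrd1, thioredoxin reductase, 13.09, 11.71, 10.95 and 11.49. Hmox1, haem oxygenase 1, was 11.72, 10.11, 9.20 and 11.48, with GW-Sham close to GW-SA. Gclc, the catalytic subunit of the ligase, differed by 0.83, and Nqo1, a quinone reductase and common NRF2 reporter, was 7.16, 6.74, 7.27 and 5.85. Nqo1 did not reach 1.5-fold. The abundant antioxidant enzymes stayed within 1.5-fold, with -0.40 for Sod1, -0.41 for Gpx1 and -0.22 for Gpx3. Ces1d, a carboxylesterase of adipocytes, was lower, at -2.09.

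Metallothioneins, which bind zinc and copper, were higher. Mt2 read 19.68 on GW-SA against 16.54 on Veh-SA, with 16.98 on Veh-Sham and 18.29 on GW-Sham, and Mt1 19.72, 18.35, 18.70 and 18.86; the GW-SA readings are near the top of the scale. Hypoxia genes were not uniform: Ndrg1 was 2.06 and Adm, adrenomedullin, 1.47 higher, while Pdk1 was lower, at -1.13, and so was Pfkfb3, which stimulates glycolysis, at -1.29. Vegfa differed by -0.36. Of 15 members of that list, 6 were higher and 3 lower. Among p53 targets 6 of 16 were higher and 1 lower. Cdkn1a, the cell cycle inhibitor p21, read 11.82, 7.79, 9.97 and 11.47, with Veh-SA far below the other 3 arrays. Mdm2, a closer p53 reporter, differed by 0.75.

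Immediate early genes were higher in 13 of 23 cases and lower in 0, median 0.69. Egr1, a zinc finger factor induced by growth signals, read 9.95 on GW-SA against 8.05 on Veh-SA, with 7.52 on Veh-Sham and 10.14 on GW-Sham. Junb was 9.08, 5.46, 5.56 and 6.80, and Nr4a3, an orphan nuclear receptor, 9.40, 5.46, 4.99 and 9.65. Ier3 was 9.89, 6.77, 5.69 and 8.46. For Egr1 and Nr4a3, GW-Sham was as high as GW-SA, so both GW4869 arrays stood above both vehicle arrays. Fos lay within background on both overload arrays, and Jun was level at 10.11 and 10.18 on Veh-SA and GW-SA. Glucocorticoid-induced genes were higher in 9 of 17 cases and lower in 2. Fkbp5, a chaperone of the receptor, read 14.51, 13.15, 12.84 and 14.36, and Sgk1, a kinase, 10.23, 8.77, 8.02 and 9.22. Tsc22d3, known as GILZ, differed by 0.48, and Per1, a clock gene with a receptor site, stayed within 1.5-fold, with 7.31, 7.89, 7.41 and 7.64. The receptor gene Nr3c1 was lower, at -1.10.

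Set beside the sham mice, the GW4869 difference in overload was of another size or sign for the adipose lists. Neither contrast has a replicate, the contrasts share no array, and the difference between them was not tested. The fatty acid synthesis median was -1.43 in overload and 0.36 in sham, triglyceride synthesis -0.92 and 0.15, and beta-oxidation -0.76 and 0.29. Complex I was -0.70 and 0.12, and branched-chain amino acid breakdown -1.20 and 0.47. Macrophage markers were 1.25 in overload and 1.73 in sham, interferon-induced genes 1.11 and 1.10, chemokines 1.22 and 1.54, and immediate early genes 0.69 and 0.85. Over all 37 measured chemokine and receptor genes the medians were 1.30 in overload and 0.89 in sham. Heat shock genes were 0.73 and 0.33, and the unfolded protein response 0.84 and -0.04. For the lists named here, immune, immediate early and heat shock medians were positive in both contrasts. The unfolded protein response median was positive in overload and near 0 in sham. Over all 22 measured members it was 0.87 in overload and 0.04 in sham. For fatty acid and triglyceride synthesis, beta-oxidation, complex I and branched-chain breakdown, medians as deposited were negative in overload and positive in sham. The mature adipocyte list had the same signs, -0.70 and 0.19, and so did endothelial genes, -0.74 and 0.38. Complex I in overload turns positive once differences are centred on adipocyte genes, and the sham medians were not centred in that way. The epididymal list was 5.43 in overload and -2.21 in sham over the 37 members above the floor, some of which passed it only through GW-SA; over all 46 measured it was 3.85 and -0.95.

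The 15 lowest differences over all genes had a median of -2.36, a small size beside the highest ones, and included Fasn, Pnpla3, Angptl8, Acss2 and Mogat1 of lipid metabolism. Pnpla3, a lipogenic relative of Pnpla2, read 10.86 on GW-SA against 13.33 on Veh-SA, with 12.91 on Veh-Sham and 13.52 on GW-Sham. Angptl8, a refeeding-induced inhibitor of lipoprotein lipase, read 4.27, 6.82, 6.06 and 5.51, above background on Veh-SA alone. Arxes1, an adipocyte protein, was 8.48, 10.88, 9.09 and 9.70, and Cdkn2c, a cell cycle inhibitor that fat expresses, 9.94, 12.15, 11.47 and 11.74. Rgs7bp, a G protein regulator partner, read 6.52, 9.26, 8.02 and 8.80. Rasd1, a dexamethasone-induced small GTPase, was 11.22, 13.34, 11.87 and 11.33. The lowest end held enzymes and regulators of lipid storage beside genes of other kinds.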

How the data were processed

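The 4 Clariom S Mouse arrays measured total RNA of epididymal adipose tissue, extracted with Trizol and biotin-labelled per the labels. The authors deposited log2 values; the submitters' processing notes name Partek and RMA. Software versions, background correction and normalization settings: not given in the sources used here. Levels reach log2 19.93, so 1 unit is a doubling on the deposited scale only.

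Of 28846 rows, 19572 carry 1 gene symbol in the platform annotation and 0 several; all Entrez identifiers matched RefSeq, and 0 symbols changed. Each of 19505 genes is represented by the probe set whose mean over 4 arrays is highest; 55 genes had several, and 1 of them had probe sets opposed by 1.5-fold. Genes were filtered by a floor at the 40th percentile of gene means, and background was taken as the 95th percentile of 23 antigenomic rows per array. With 1 array per group no model, p-value or interval was computed, and the number of arrays limits precision. Values were computed with Python 3.11.15, pandas 2.3.3 and statsmodels 0.14.6, and the scripts were tested on simulated data.

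The 58 gene lists (1241 genes, 1134 measured) and the members described were chosen with earlier results of these data known. Genes named are the core members of a list, up to 5 further members with the largest differences above floor and background, the 15 highest and 15 lowest differences outside tract lists and the 10 highest within them, without predicted models and olfactory, vomeronasal and taste receptors; other members named only to show the remainder of a list were chosen after their values were seen. Alternatives were other scalings (all-gene, adipocyte, quantile, lowess trend), floors, background filters, probe set means, a 2-fold threshold and leaving out tract genes; centring on adipocyte differences was added after seeing the data. Promoter windows came from RefSeq, GRCm38.p6.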

Additional observations from a re-analysis of the deposited data

Results flagged for a closer look

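The GW4869 difference ran one way in overloaded mice and the other way in sham mice for 2 lists, by at least 1.5-fold each. The epididymal epithelium list had a median difference of 5.43 in overload and -2.21 in sham, 7.65 log2 units apart, over the 37 members above the floor, some of which passed it only through GW-SA. Over all 46 measured members the medians were 3.85 and -0.95. Epithelial structural genes had 4.92 and -0.88, which are 5.81 apart, over 20 members above the floor chosen in the same way. Over all 24 measured they were 4.24 and -0.88. Each contrast is 1 array against 1 array, and the difference between them was not tested.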

How the results depend on the processing

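No paired analysis was possible because each group has 1 array, and no replicate could be left out. Under all-gene centring, quantile normalization, trend removal, the background filter, probe set means and raising low values to the floor, the counts of 2156 higher and 2202 lower genes kept within 1.5 times of these values. Leaving out tract genes did the same. Adipocyte centring gave 3779 higher and 947 lower genes, and adipocyte difference centring 6398 and 350; the higher share of all genes past the threshold became 80.0% and 94.8%, reversing which side is larger. Without a floor 3785 genes were lower, and a 2-fold threshold left 1101 higher and 765 lower.

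With adipocyte centring the medians fell short of 1.5-fold for triglyceride synthesis (-0.58), beta-oxidation (-0.43), citric acid cycle (-0.55), complex I (-0.36) and mature adipocyte genes (-0.36). With adipocyte difference centring they were -0.22, -0.067, -0.19, 0.0009 and 0.0, with -0.50 for branched-chain amino acid breakdown; adipokines (0.021), adipocyte regulators (0.072), and complexes II and III (0.027) reversed like complex I. Trend removal gave -0.56 for mature adipocyte genes. The ATF4 list median missed 1.5-fold under all-gene centring (0.58), quantile normalization (0.57), no floor (0.57) and without tract genes (0.57). The Leydig and Sertoli list reversed to 1.505 under the background filter, which leaves fewer of its 4 genes. Of 460 gene differences, 0 that passed 1.5-fold changed sign under the alternatives run on single genes. All-gene and adipocyte centring could not have changed such a sign, since they added only -0.0855 and 0.336 to every difference. Dropping the floor, the background filter and leaving out tract genes left each difference as it was. Adipocyte difference centring, which adds 0.697, was not run on single genes. Signal over background limits the neutrophil, lymphocyte and thermogenic lists, and the array ceiling limits the highest adipocyte genes.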
